A study of Homo sapiens with 18 samples.

Results

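The PAX genes are the 9 human genes PAX1 to PAX9, which encode transcription factors that bind DNA through a paired domain. They were taken by name from 64449 genes annotated on chromosomes 1 to 22, X and Y of GRCh37, the same sequence as NCBI build 37, and all 9 were found. DNA methylation was measured in 3 established human cell lines, namely HCT15, derived from a colorectal carcinoma, and DU145 and PC3, derived from prostate cancers. All were grown in complete medium without a treatment. Reduced representation bisulfite sequencing (RRBS), which reads methylation base by base in DNA cut at CCGG, gave 1 library per cell line. MBD-seq, in which a methyl-CpG binding domain pulls methylated DNA out of sheared DNA, was done once per cell line with each of 5 kits (MethylMagnet, MethylCollector, MethylCollector Ultra, MethylCap and MethylMiner), giving 15 libraries. No kit and cell line had a replicate, so differences compare libraries, and a change of cell line cannot be told apart from a change of library.

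PAX proteins direct the formation of organs in the embryo and in most adult tissues are switched off. They fall into 4 subgroups by their protein domains. Most of their genes lie in CpG islands, stretches rich in CpG that are free of methylation in most normal cells, where Polycomb proteins often hold them silent. In tumours the islands of such developmental regulators are known to gain methylation. PAX proteins work with partners such as the EYA and DACH proteins in a network that controls, among others, eye, kidney and muscle precursors.

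For each gene the promoter was the stretch within 1 kb either side of its most 5′ annotated end, and the gene body was everything between its 5′ and 3′ ends. CpGs read at least 10 times in RRBS were used, and a mean needed at least 5 of them. The windows of 8 genes held between 84 CpGs in PAX8 and 138 in PAX1, with 9 to 25 CCGG sites. Their CpGs over those expected from the C and G content were lower in PAX8 (0.47) and PAX2 (0.53) than in the others (0.65 to 0.73). The PAX4 window stood apart with 7 CpGs and 1 CCGG site, and no CpG in it was read often enough in any cell line. CCGG sites were found in 81.8% of the windows of all genes, with a median of 3, so PAX4 is among the windows that RRBS could hardly reach.

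The reference sequences below show what was read at the promoters with the largest range over the cell lines. Each is GRCh37 sequence in the direction of the gene, 5′ to 3′, with the CpGs measured in all 3 libraries in capitals, and none of it is an untranslated region. The first 4 stretches lie in the promoter windows. The PAX9 stretch is chr14:37126705-37126752 on the plus strand. PAX1 is shown at chr20:21686251-21686294 on the plus strand. PAX3 is shown at chr2:223162974-223163273 on the minus strand, in the gene. PAX5 is shown at chr9:37034450-37034749 on the minus strand, before the 5′ end. The last 2 stretches were chosen after the values were seen, since they mark where HCT15 parts from the prostate lines, at chr10:102504342-102504641 before the canonical start of PAX2 (plus strand) and at chr11:31834713-31834802 inside PAX6 (minus strand).
PAX9: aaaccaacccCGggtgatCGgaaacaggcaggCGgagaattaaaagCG
PAX1: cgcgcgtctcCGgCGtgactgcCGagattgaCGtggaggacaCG
PAX3: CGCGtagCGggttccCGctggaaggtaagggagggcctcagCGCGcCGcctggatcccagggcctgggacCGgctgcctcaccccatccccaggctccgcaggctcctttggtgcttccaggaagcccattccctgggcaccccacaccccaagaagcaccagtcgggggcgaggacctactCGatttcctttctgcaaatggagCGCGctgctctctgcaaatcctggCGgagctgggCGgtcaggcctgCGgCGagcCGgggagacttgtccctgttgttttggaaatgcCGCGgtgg
PAX5: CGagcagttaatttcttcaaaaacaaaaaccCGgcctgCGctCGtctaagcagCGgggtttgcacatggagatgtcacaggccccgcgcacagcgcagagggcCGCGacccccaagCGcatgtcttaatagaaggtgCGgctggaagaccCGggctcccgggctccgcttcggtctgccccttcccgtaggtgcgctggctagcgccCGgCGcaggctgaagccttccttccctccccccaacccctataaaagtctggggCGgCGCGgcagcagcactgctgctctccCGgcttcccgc
PAX2: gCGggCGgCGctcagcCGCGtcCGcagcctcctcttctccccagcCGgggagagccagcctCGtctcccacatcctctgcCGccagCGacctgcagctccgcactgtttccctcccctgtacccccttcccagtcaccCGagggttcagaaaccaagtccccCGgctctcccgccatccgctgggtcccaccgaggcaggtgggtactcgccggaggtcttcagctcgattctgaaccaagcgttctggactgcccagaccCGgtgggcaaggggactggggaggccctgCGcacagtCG
PAX6: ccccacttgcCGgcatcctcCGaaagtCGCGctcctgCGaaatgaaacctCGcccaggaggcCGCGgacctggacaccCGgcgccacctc
In the PAX9 stretch, 4 CpGs averaged 100% methylation in HCT15, 32.5% in DU145 and 63.0% in PC3. The 15 measured CpGs of the PAX2 stretch averaged 82.9%, 22.7% and 13.4% in the same order, and the 9 of the PAX6 stretch 86.5%, 13.8% and 12.7%. The 18 CpGs of the PAX3 stretch were methylated in all 3 cell lines, at 96.6%, 99.3% and 89.0%. The 16 CpGs of the PAX5 stretch lay at 49.0% in HCT15, 44.5% in DU145 and 22.4% in PC3.

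At their most 5′ ends, PAX promoters were heavily methylated in all 3 cancer cell lines. A mean methylation of 50% or more was found in 8 of 8 measured PAX promoters in HCT15, against 41.1% of the promoters of all genes measured. In DU145 it was 6 of 8 against 36.8%, and in PC3 7 of 8 against 33.4%. All genes here include noncoding ones, and over protein-coding genes alone the shares were 26.0%, 18.1% and 16.7%. Median methylation of the PAX promoters was 93.3% in HCT15, 80% for DU145 and 68.1% for PC3, where the promoters of all genes had medians of 26.8%, 24% and 22.2%. The promoters below 50% were PAX9 and PAX5 in DU145 and PAX5 in PC3. Values below are means with the SD over CpGs, which is a spread along the DNA and not an error between replicates.

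**Figure D1:**
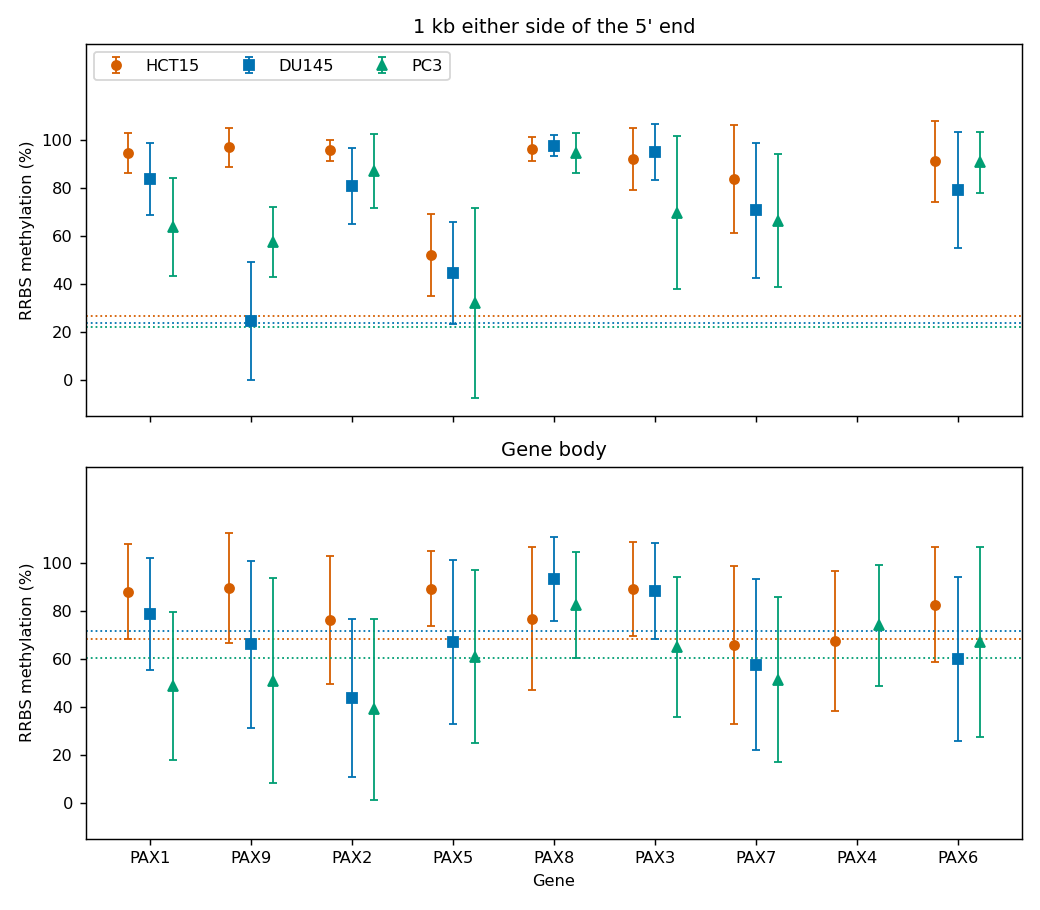
Mean RRBS methylation (%) of each PAX gene in HCT15 (circles), DU145 (squares) and PC3 (triangles), over 1 kb either side of the 5′ end (top) and over the gene body (bottom). Bars are the SD over CpGs and can pass 0 or 100%. Dotted lines are the medians of all genes, such as 26.8% in HCT15 for promoters. No point is drawn with fewer than 5 CpGs, as for PAX4 promoters. PAX9 in DU145 (24.6%) lies far below HCT15 (96.9%), while the 3 PAX8 promoter values overlap.

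PAX1 and PAX9, the pair that acts in the sclerotome, from which vertebrae form, and in the pharyngeal pouches that give the thymus, held the largest promoter differences. PAX9 (chr14:37126773-37148567, plus strand), which is also needed for teeth, was methylated at 96.9% ± 8.3 (SD, n = 19 CpGs) in HCT15, 24.6% ± 24.5 (n = 20) in DU145 and 57.4% ± 14.6 (n = 20) in PC3. HCT15 was near complete methylation, PC3 in the middle, and 12 of the 20 CpGs in DU145 were at 20% or less. On shared CpGs the difference was 73.7 points between HCT15 and DU145, 40.2 points between HCT15 and PC3, and -32.7 points for DU145 minus PC3. PAX9 was thus the 1 PAX promoter of 8 that was 25 points or more higher in HCT15 than in DU145 (10.9% of all genes measured), and the 1 that was so in PC3 against DU145 (3.22% of all genes). The PAX9 values hold for the stretch next to the 5′ end. They also rest on few reads in HCT15, where the median coverage of the 19 CpGs was 14. At a coverage of at least 20 in each pair, PAX9 kept too few CpGs for a difference with HCT15, and the 1 CpG read so often in all 3 cell lines, at chr14:37126715, stood at 100%, 75.9% and 81.2%. In a window of 2 kb either side the differences were 20.1, 1.3 and -16.1 points in the same order. The flanking kb carried other values, which the profiles show.

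PAX1 (chr20:21686297-21699119, plus strand) was methylated at 94.5% ± 8.3 in HCT15, 83.7% ± 15.0 in DU145 and 63.7% ± 20.5 in PC3 (SD, n = 10 CpGs each). PC3 was lowest. The difference of 30.8 points between HCT15 and PC3 made PAX1, beside PAX9, the second of 2 promoters of 8 that passed 25 points in that pair and direction (12.6% of all genes). DU145 and PC3 differed by 20 points. PAX1 rests on 10 of the 138 CpGs in its window.

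In the subgroup of PAX2, PAX5 and PAX8, the methylation of the promoters ran from nearly complete to partial. PAX8 (chr2:113973574-114036498, minus strand), the thyroid and kidney factor, was methylated at 96.2% ± 5.0 (SD, n = 40 CpGs) in HCT15, 97.7% ± 4.5 (n = 29) in DU145 and 94.6% ± 8.2 (n = 45) in PC3. The 3 cell lines lay within the spread over CpGs, and the differences on shared CpGs were between -2.3 and 2.9 points. PAX2 (chr10:102495153-102589701, plus strand), which acts in the kidney and the optic nerve, stood at 95.7% ± 4.3 (n = 63), 80.8% ± 15.8 (n = 63) and 87.1% ± 15.6 (n = 59) at its most 5′ end. All 63 CpGs of PAX2 in HCT15 were at 80% or more, against 38 of 63 in DU145. PAX5 (chr9:36833266-37034265, minus strand), the factor that commits cells to the B lineage, had the lowest values of HCT15 and PC3, at 52.1% ± 17.2 in HCT15, 44.6% ± 21.2 in DU145 and 32.0% ± 39.6 in PC3 (n = 23 CpGs each). The means of PAX5 hide different shapes. In PC3, 14 of the 23 CpGs were at 20% or less and 6 at 80% or more, while in HCT15 none was at 20% or less and 2 were at 80% or more. The PAX5 difference of 20.1 points between HCT15 and PC3 turned to -9.4 points in a window of 2 kb either side.

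PAX3 and PAX7 act in neural crest and in muscle precursors, with PAX7 kept in the satellite cells of adult muscle. PAX3 (chr2:223064606-223163717, minus strand) was methylated at 92.1% ± 13.1 (SD, n = 66 CpGs) in HCT15, 95.1% ± 11.6 (n = 60) in DU145 and 69.7% ± 31.8 (n = 69) in PC3. HCT15 and DU145 differed by -0.3 points on shared CpGs, while PC3 was 21.6 points below HCT15, and its CpGs ran from 0.0% to 100%. PAX7 (chr1:18957340-19075360, plus strand) stood at 83.6% ± 22.5 (n = 54), 70.7% ± 28.2 (n = 48) and 66.5% ± 27.8 (n = 54). Its differences of 14.9 points (HCT15 against DU145) and 17.2 points (HCT15 against PC3) were smaller than the SD over CpGs in any of the 3 cell lines. Neither gene passed 25 points in a pair on shared CpGs. For PAX3, DU145 minus PC3 was 19.1 points on 60 shared CpGs, where the PC3 mean above is over 69. In a window of 2 kb either side PAX7 passed 25 points, with 28.3 points for HCT15 minus DU145. Its DU145 minus PC3 difference turned there from 5.0 to -10.2 points.

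PAX4 and PAX6 act in the endocrine pancreas, and PAX6 is the main regulator of eye formation. PAX6 (chr11:31806327-31839509, minus strand) was methylated at 91.1% ± 16.7 (SD, n = 35 CpGs) in HCT15, 79.2% ± 24.1 (n = 38) in DU145 and 90.7% ± 12.7 (n = 49) in PC3, which overlap. For PAX4 (chr7:127250346-127258196, minus strand), which helps make insulin cells, the 9 CpGs of the gene body averaged 67.4% ± 29.1 in HCT15 and the 7 in PC3 73.9% ± 25.2. In DU145, 2 CpGs of PAX4 were read often enough, at 29.4% and 94.1%. The nearest stretch with values in all 3 cell lines was 7 CpGs between 1 and 2 kb before the 5′ end of PAX4, with means of 82.5%, 41.9% and 31.5% in HCT15, DU145 and PC3.

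Against the direction of these calls, no PAX promoter was 25 points or more higher in DU145 than in HCT15 (2.72% of all genes), in PC3 than in HCT15 (2.06%) or in DU145 than in PC3 (7.44%). The median difference over the 8 PAX promoters was 10.2 points for HCT15 minus DU145, 18.6 for HCT15 minus PC3 and 3.9 for DU145 minus PC3. The same medians over all genes measured were -0.4, 0.2 and 0.4 points. PAX1 was 30.3 points higher in DU145 than in PC3, in place of 20, when the window was centred on the canonical start, 5 bp away, which took in 2 more CpGs.

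The most 5′ end is not where the canonical transcript (MANE Select) starts in PAX2, PAX6 and PAX9, whose canonical starts lie 10186, 6639 and 4292 bp further into the gene. At the canonical start of PAX2, HCT15 was methylated at 81.7% ± 20.4 (SD, n = 89 CpGs), DU145 at 25.4% ± 26.3 (n = 106) and PC3 at 18.0% ± 29.3 (n = 80). The PAX2 differences there were 59.8 and 64.6 points, where those at the most 5′ end were 15.0 and 8.4 points. At the canonical start of PAX6 the means were 63.2% ± 30.3 (n = 31), 30.2% ± 25.3 (n = 32) and 16.0% ± 21.2 (n = 41), with differences of 32.3 points (HCT15 against DU145) and 45.5 points (HCT15 against PC3), against 9.5 and 1.2 points at the most 5′ end. PAX9 stood at 78.2% ± 34.8, 40.7% ± 31.5 and 49.6% ± 46.3 (n = 49 each). In all 3 genes HCT15 had the highest mean at the canonical start, and the upstream ends of PAX2 and PAX6 were methylated in the prostate lines as well. With canonical starts, promoters at 50% or more numbered 4 in place of 6 in DU145 and 4 in place of 7 in PC3, while HCT15 stayed at 8. The share of all genes was not computed at canonical starts, so these counts cannot be set against a background.

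Over the gene bodies HCT15 was 25 points or more above DU145 in 2 of 8 measured bodies (PAX2 and PAX9; 5.45% of all genes measured) and above PC3 in 4 of 9 (PAX1, PAX2, PAX5 and PAX9; 9.34% of all genes). DU145 was above PC3 in 1 of 8 (PAX1; 9.3%). No PAX gene body passed 25 points the other way, against 2.57% of all genes for DU145 over HCT15, 1.27% for PC3 over HCT15 and 1.52% for PC3 over DU145. The median PAX gene body was methylated at 82.5% in HCT15, 66.5% in DU145 and 60.9% in PC3, where all genes had medians of 68.1%, 71.5% and 60.1%.

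By gene, the PAX2 body was methylated at 76.1% ± 26.6 (SD, n = 540 CpGs) in HCT15, 43.7% ± 33.0 (n = 595) in DU145 and 38.9% ± 37.6 (n = 452) in PC3. The PAX5 body stood at 89.2% ± 15.5 (n = 376), 67.1% ± 34.1 (n = 435) and 60.9% ± 36.0 (n = 347). For PAX9 the values were 89.5% ± 22.8 (n = 145), 65.9% ± 34.9 (n = 185) and 50.9% ± 42.8 (n = 183). Those 3 genes share the order HCT15, DU145, PC3. The PAX9 difference of 25.2 points between HCT15 and DU145 sat at the limit and was 19.4 points without the first kb of the gene, 13.5 points at a coverage of at least 20 and 11.8 points with reads pooled over CpGs. In PAX1, PC3 was set apart at 48.7% ± 30.7 (n = 78), below 87.9% ± 19.9 (n = 66) in HCT15 and 78.7% ± 23.3 (n = 69) in DU145. These means rest on a part of each body, which holds 1907 CpGs in PAX2, 3057 in PAX5, 553 in PAX9 and 410 in PAX1. The bodies of PAX2, PAX6 and PAX9 also contain their canonical starts, with 106 of the 595 PAX2 CpGs in DU145. Their body differences thus partly repeat those at the canonical starts, also without the first kb.

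PAX8 differed in order over its body, with HCT15 lowest, at 76.6% ± 29.8 (SD, n = 193 CpGs) in HCT15, 93.0% ± 17.5 (n = 165) in DU145 and 82.2% ± 22.1 (n = 200) in PC3, with a difference of -15.9 points for HCT15 minus DU145. PAX8 was the one gene whose body mean was lowest in HCT15 among the 8 measured in all 3 cell lines. PAX3 stood at 89.0%, 88.2% and 64.9%, with PC3 apart as at its promoter, PAX7 at 65.7%, 57.5% and 51.3%, and PAX6 at 82.5%, 59.9% and 66.8%. The PAX8 body is overlapped by the antisense RNA gene PAX8-AS1, PAX3 by CCDC140 and PAX6 by PAUPAR and ELP4, so CpGs there lie in those genes too.

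Sorted by annotation over all 9 bodies, CpGs in coding exons averaged 82.1% ± 24.7 (SD, n = 176 CpGs) in HCT15, 70.2% ± 31.6 (n = 201) in DU145 and 56.3% ± 36.2 (n = 194) in PC3. Introns, with 1428 to 1453 CpGs per cell line, averaged 79.6%, 64.0% and 57.4%. In untranslated regions the means were 73.0%, 50.5% and 47.3%, and in noncoding exons 89.8%, 55.3% and 71.4%. HCT15 was highest in each of the 4 classes, and noncoding exons were the class in which PC3 exceeded DU145.

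**Figure D2:**
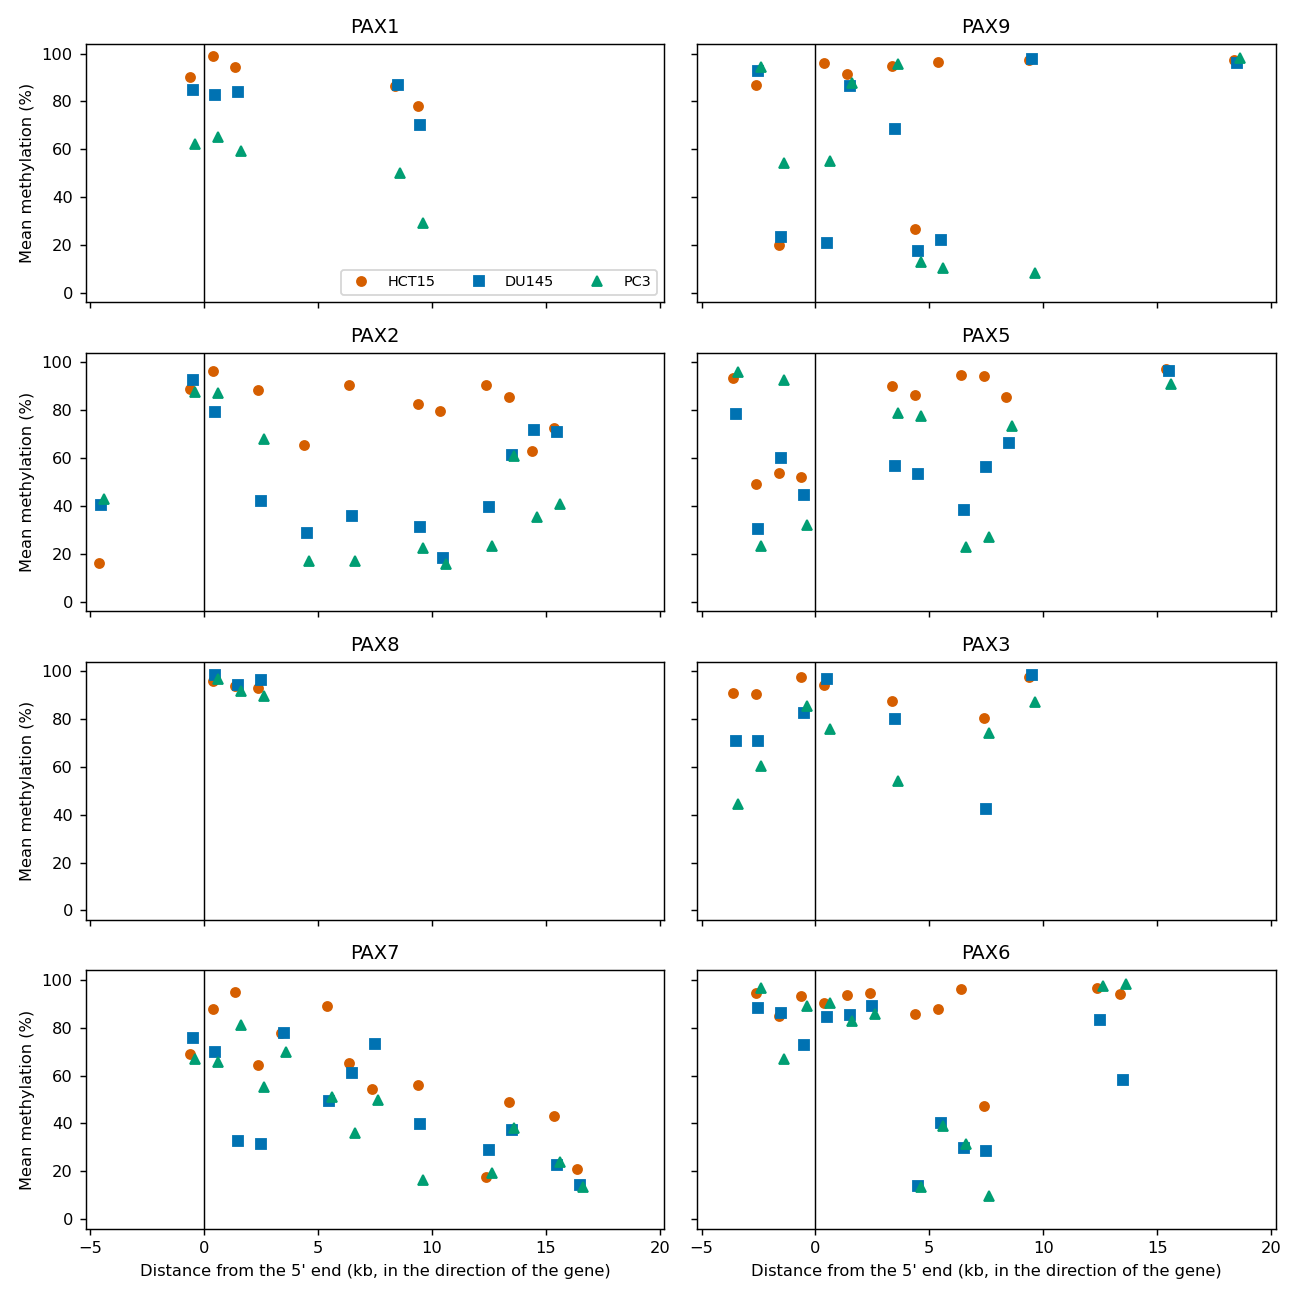
Mean RRBS methylation (%) in 1-kb bins against distance from the most 5′ end (kb, in the direction of the gene) for the 8 PAX genes with promoter values, in HCT15 (circles), DU145 (squares) and PC3 (triangles). A bin needs 5 CpGs covered in all 3 cell lines, and bins past 20 kb are not drawn. Points of 1 bin are set slightly apart. From 4 to 13 kb into PAX2 the HCT15 means, 65.4% to 90.5%, lie above those of DU145 and PC3, while the PAX8 bins near the 5′ end stay together.

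Profiles in bins of 1 kb placed the differences. The bins ran from 5 kb before the 5′ end to 4 kb past the 3′ end, and 68 of them held at least 10 CpGs covered in all 3 cell lines. HCT15 had the highest mean in 46 bins, DU145 in 12 and PC3 in 10, and the lowest mean was in PC3 in 37, in DU145 in 23 and in HCT15 in 8. The means differed by 50 points or more in 15 bins, of which 14 were highest in HCT15 and 1 in DU145. The lowest cell line in these 15 bins was DU145 in 6 and PC3 in 9. In 15 other bins the range was under 15 points, and in 10 of those all 3 means were at 80% or more. Bins of all genes were not counted, so the lead of HCT15 cannot be read as particular to PAX genes. Among promoters of all genes, 10.9% were 25 points or more higher in HCT15 than in DU145 and 2.72% lower. Against PC3 these shares were 12.6% and 2.06%.

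Some stretches separated HCT15 from the prostate lines together. At 4 to 5 kb into PAX6 the means were 85.7% in HCT15, 14.0% in DU145 and 13.5% in PC3. At 6 to 7 kb into PAX2 they were 90.5%, 35.6% and 17.1%, and near the 3′ end of PAX2, at 91 to 92 kb, 91.1%, 26.1% and 28.4%. PAX5 had such a stretch at 6 to 7 kb, with 94.7%, 38.4% and 22.8%, and PAX9 at 5 to 6 kb, with 96.3%, 22.2% and 10.6%. In that PAX9 stretch MBD-seq gave DU145 another place, with a MethylCap depth of 17.8, 45.1 and 0.0 times the library mean (25, 12 and 0 fragment starts) in HCT15, DU145 and PC3, and a MethylMiner depth of 1.66, 18.3 and 4.54 times.

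Other stretches set a single cell line apart. PC3 stood alone at 9 to 10 kb into PAX9, with 8.1% against 97.1% in HCT15 and 97.7% in DU145, and at 9 to 10 kb into PAX1, with 29.2% against 77.9% and 70.3%. DU145 stood alone at 47 to 48 kb into PAX5, with 22.1% against 95.7% in HCT15 and 87.6% in PC3, and at 1 to 2 kb into PAX7, with 32.6% against 95% and 81.1%. HCT15 was the lowest at 42 to 43 kb into PAX8, with 49.0% against 98.1% in DU145 and 69.3% in PC3. In PAX9 the high and low stretches alternated. The bin 1 to 2 kb into the gene was methylated at 91.6%, 86.6% and 87.8%, next to the first kb at 96.1%, 20.7% and 55%.

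Single CpGs were compared by Fisher's exact test on methylated and unmethylated reads (two-sided, Benjamini-Hochberg adjusted over all CpGs tested genome-wide in a pair), and called at an adjusted p under 0.05 with a difference of at least 25 points. The test compares the reads of 2 libraries, and reads copied by PCR are not independent molecules. Of 275 CpGs in the PAX promoters, 55 (20%) were called higher in HCT15 than in DU145, where 7.18% of all CpGs tested were, and 2 (0.7%) higher in DU145, where 6.95% were. Against PC3, 69 of 300 (23%, all CpGs 11.3%) were higher in HCT15 and 5 (1.7%, all CpGs 3.8%) lower. Between DU145 and PC3, 41 of 287 (14.3%, all CpGs 12.1%) were higher in DU145 and 35 (12.2%, all CpGs 3.38%) higher in PC3. PAX9 gave 16 of the 55, from 19 CpGs tested, and 14 of the 35, from 20. Of the 69, PAX7 gave 20 from 54 CpGs tested, PAX3 gave 19 from 66 and PAX9 gave 14 from 19.

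In the gene bodies 590 of 1852 CpGs (31.9%, all CpGs 7.18%) were higher in HCT15 than in DU145 and 107 (5.8%, all CpGs 6.95%) lower. Against PC3, 622 of 1874 (33.2%, all CpGs 11.3%) were higher in HCT15 and 48 (2.6%, all CpGs 3.8%) lower. Between the prostate lines, 388 of 1860 (20.9%, all CpGs 12.1%) were higher in DU145 and 191 (10.3%, all CpGs 3.38%) in PC3. The shares that were lower in HCT15 lay near those of all CpGs, at 5.8% against 6.95% and 2.6% against 3.8%. PAX2 held 258 of the 590, from 498 of the 1852 CpGs tested, and 213 of the 622, from 431 of the 1874. PAX8, with 144 CpGs tested in that pair, held 38 of the 107 CpGs that were higher in DU145 than in HCT15, and 0 of the 590. Neighbouring CpGs are often read on the same fragments, so these counts are not counts of independent sites.

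**Figure D3:**
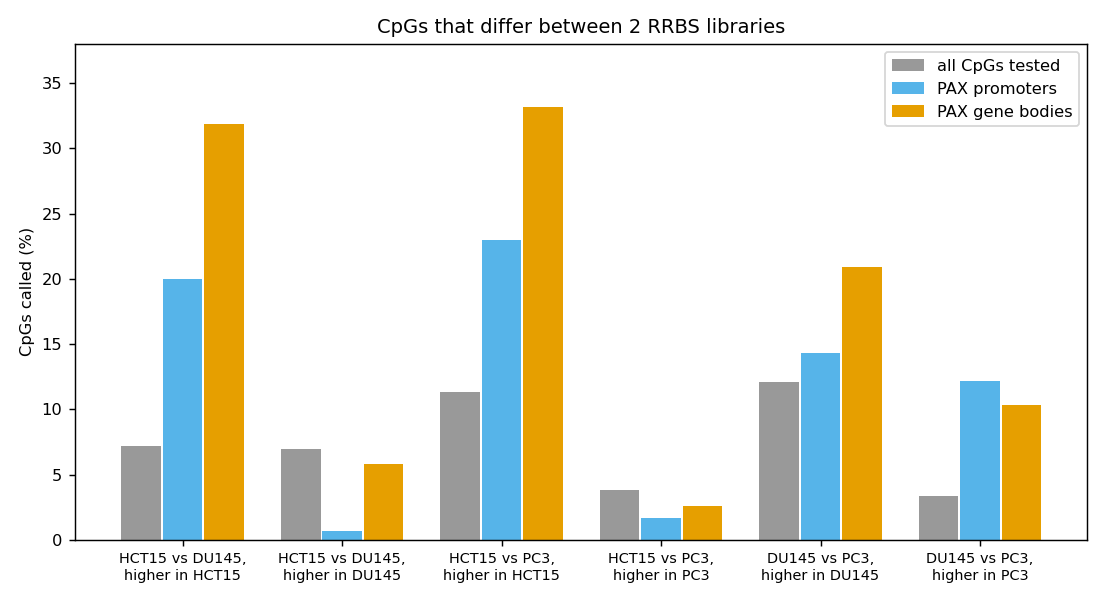
Share of CpGs (%) called different between 2 RRBS libraries by Fisher's exact test, in each pair and direction, for all CpGs tested (grey), PAX promoters (blue) and PAX gene bodies (orange). Bars start at 0. The bars for PAX gene bodies higher in HCT15, at 31.9% and 33.2%, stand above the grey bars at 7.18% and 11.3%.

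The CpG with the largest range over the cell lines, among those read at least 20 times in each, was picked in the promoter and in the body of each gene, so its values are a description. PAX4 had no such CpG. In the PAX6 body, the intronic CpG at chr11:31834774 was methylated in 28 of 28 reads in HCT15, 0 of 75 in DU145 and 0 of 62 in PC3, and it lies in the PAX6 stretch shown above. The 95% Wilson intervals are 87.9% to 100%, 0.0% to 4.9% and 0.0% to 5.8%, and cover counting error alone. In PAX2 the intronic CpG at chr10:102502065 stood at 27 of 27, 22 of 65 and 0 of 28 reads. In PAX9 the CpG at chr14:37132063, in a noncoding exon, stood at 22 of 22, 7 of 35 and 0 of 30. These 3 CpGs were complete in HCT15 and without a methylated read in PC3.

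Not every such CpG followed HCT15. The CpG at chr20:21687302 in a coding exon of PAX1 was methylated in 74 of 78 reads in HCT15 and 140 of 152 in DU145, and in 0 of 86 in PC3. In an untranslated region of PAX5, the CpG at chr9:36835805 was methylated in 37 of 60 reads in HCT15, 140 of 140 in DU145 and 0 of 43 in PC3. DU145 was the low one at chr9:37035116 before PAX5, with 7.6% against 79.5% in HCT15 and 85.7% in PC3. It was the high one at chr1:18957150 before PAX7, with 89.6% against 10.2% and 28.6%. The CpG in the PAX8 body, chr2:113993400, stood at 20% in HCT15, 96.8% in DU145 and 61.9% in PC3. An intronic CpG of PAX3, chr2:223093028, was highest in DU145 too, at 46.2%, 100% and 13.3%, while that of PAX7, chr1:18967272, followed HCT15, at 100%, 61.5% and 2.9%.

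MBD-seq depth over the promoter window was divided by the mean depth of the genome in the same library, since the deposited depth is not scaled. The libraries held from 10040 fragment starts (MethylMagnet, DU145) to 7344098 (MethylMiner, HCT15). In 12 of the 15 libraries, depth was highest at CpGs that RRBS found methylated in the named cell line alone. The exceptions were the 3 MethylMiner libraries. PAX promoters with at least 3 times the library mean numbered 8, 6 and 7 of 9 with MethylCap, for HCT15, DU145 and PC3 in that order (20.9%, 19.9% and 19.0% of all genes). For MethylCollector they numbered 8, 4 and 7 (22.2%, 5.5% and 11.1%), and for MethylCollector Ultra 8, 0 and 6 (21.7%, 5.25% and 19.2%). MethylMagnet gave 5, 1 and 8 (10.2%, 2.3% and 20.8%). For MethylMagnet and MethylCollector these totals, 14 and 19 of 27, were the same as for windows with at least 1 fragment start, so a single fragment passed the limit there. The 1 call in the DU145 MethylMagnet library was PAX2, with 1 start at 165 times the mean. MethylMiner gave 1, 2 and 3 (6.32%, 14.5% and 16.0%).

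The count of 0 for MethylCollector Ultra in DU145 came with no fragment start in any of the 9 windows. That library held 30336 fragment starts. The DU145 MethylCollector library was of like size, with 29613, and its 4 calls rest on 1 or 2 starts each. A window without a start has an exact 95% Poisson interval of 0.0 to 3.7 starts, so no single window tells these libraries apart. The DU145 MethylMagnet library was smaller still. With MethylCap the median PAX promoter lay at 8.15, 4.82 and 8.97 times the library mean in HCT15, DU145 and PC3, and the median of all genes at 0.717, 0.0 and 0.0. With MethylMiner the PAX medians were 1.77, 1.95 and 2.52 and those of all genes 1.25, 1.16 and 1.24. PAX promoters thus stood further from the median gene in the MethylCap libraries than in the MethylMiner libraries.

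**Figure D4:**
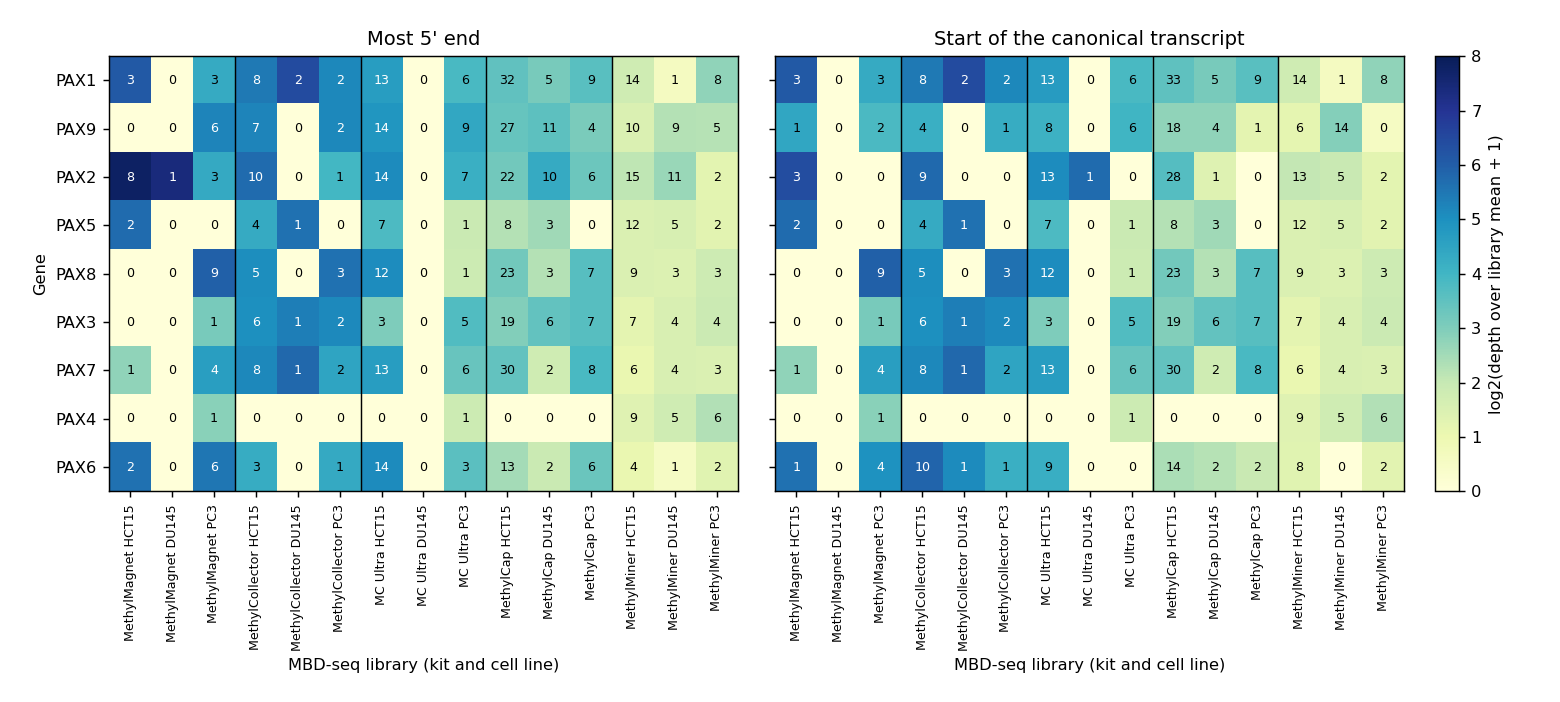
MBD-seq depth over the promoter window of the 9 PAX genes in the 15 libraries, as log2 of the depth over the library mean plus 1 (colour), for the most 5′ end (left) and the canonical start (right). Numbers in the cells are fragment starts in the window, and MC Ultra is MethylCollector Ultra. For PAX2 with MethylCap, 22, 10 and 6 starts on the left in HCT15, DU145 and PC3 become 28, 1 and 0 on the right. Dark cells with 1 to 3 starts come from libraries of low yield.

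MethylCap held the most fragment starts of the kits whose depth followed the cell line, so it gives the values by gene. PAX1 lay at 10.3, 7.58 and 11.2 times the library mean in HCT15, DU145 and PC3, from 32, 5 and 9 starts. PAX8, methylated throughout in RRBS, lay at 8.15, 3.86 and 11.4 times from 23, 3 and 7 starts, and PAX3 at 6.76, 9.95 and 11.4 times from 19, 6 and 7 starts. PAX7 lay at 10.0, 2.5 and 13.5 times from 30, 2 and 8 starts. The counts in DU145 and PC3 are small, and 3 starts have an exact 95% Poisson interval of 0.6 to 8.8.

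The lowest MethylCap value among the 8 promoters that RRBS measured was PAX5 in PC3, with 0 starts (interval 0.0 to 3.7) against 3.83 times the mean in HCT15 and 4.82 times in DU145. PAX6 lay at 4.64, 2.83 and 8.97 times. PAX4 had 0 MethylCap starts in every cell line and 9, 5 and 6 MethylMiner starts in HCT15, DU145 and PC3. The window of PAX4, with 7 CpGs, thus held MethylMiner fragments where MethylCap gave none. Its MethylMiner depth was 1.56, 2.5 and 3.96 times the library mean, where the medians of all genes were 1.25, 1.16 and 1.24. With the other kits PAX4 had 1 start each in PC3 with MethylMagnet and MethylCollector Ultra, and none elsewhere.

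At the canonical start of PAX2 the MethylCap depth was 11.7 times the library mean in HCT15 (28 starts), 1.60 times in DU145 (1 start) and 0 in PC3 (0 starts), the order found by RRBS (81.7%, 25.4% and 18.0%). The canonical start of PAX6 had its RRBS order too, with less contrast, at 4.22, 3.71 and 2.90 times. These PAX6 values rest on 14, 2 and 2 starts, so DU145 and PC3 were not told apart. The canonical start of PAX9 lay at 5.86, 5.81 and 1.33 times, from 18, 4 and 1 starts, where RRBS gave 78.2%, 40.7% and 49.6%. DU145 and PC3 thus had the other order there. At the most 5′ ends, MethylCap depth was higher in the cell line with the higher RRBS mean in 1 of the 4 PAX differences of 25 points or more. Over all genes with such a difference this share was 78.3% (HCT15 against DU145), 79.7% (HCT15 against PC3) and 67.3% (DU145 against PC3). MethylCollector and MethylCollector Ultra had the RRBS direction in all 4, though both held 0 starts for PAX9 in DU145. Their shares over all genes were 69.3%, 74.2% and 33.8% (MethylCollector) and 70.2%, 82.4% and 37.9% (MethylCollector Ultra), in the same order of pairs. MethylMagnet had it in 0 of 1, 1 of 2 and 1 of 1 (51.6%, 56.1% and 29.3% of all genes). MethylMiner had it in 0 (40.7%, 37.7% and 48.7% of all genes). Promoters without depth in either cell line were counted as lacking the direction. The 4 differences are PAX9 in each pair and PAX1 in HCT15 against PC3, so they cannot rank the kits. With MethylCap, PAX1 lay at 10.3 times in HCT15 and 11.2 in PC3, where RRBS was 30.8 points higher in HCT15. For PAX9, MethylCap lay at 9.60, 10.8 and 7.36 times the mean in HCT15, DU145 and PC3, from 27, 11 and 4 starts, where RRBS gave 96.9%, 24.6% and 57.4%. RRBS read 20 of the 106 CpGs of that PAX9 window in DU145. With MethylMiner, PAX9 and 1 Mb either side lay at 1.66 times the library mean in DU145, against 0.771 in HCT15 and 1.07 in PC3. The part of this regional depth in the PAX9 value was not tested.

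Over the 68 bins of 1 kb, MethylCap depth was set against the RRBS mean of the same bin and cell line. In bins at 80% or more the median depth was 8.88 times the library mean in HCT15 (44 bins), 10.1 times in DU145 (19 bins) and 7.84 times in PC3 (18 bins). Bins under 20% had medians of 1.02 (2 bins), 0.0 (5 bins) and 0.0 (11 bins), and those between had 5.95, 3.85 and 5.26. In PC3, 1 of the 11 bins under 20% held a MethylCap start and 15 of the 18 bins at 80% or more did. With MethylMiner the medians under 20% and at 80% or more were 1.01 and 1.73 in HCT15, 2.31 and 2.03 in DU145, and 0.183 and 1.65 in PC3. MethylCap thus had its lowest depth in the PAX bins that RRBS found unmethylated in each cell line, while for MethylMiner in DU145 the bins under 20% had the higher median. Bins of a gene share their neighbourhood and are not replicates.

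**Figure D5:**
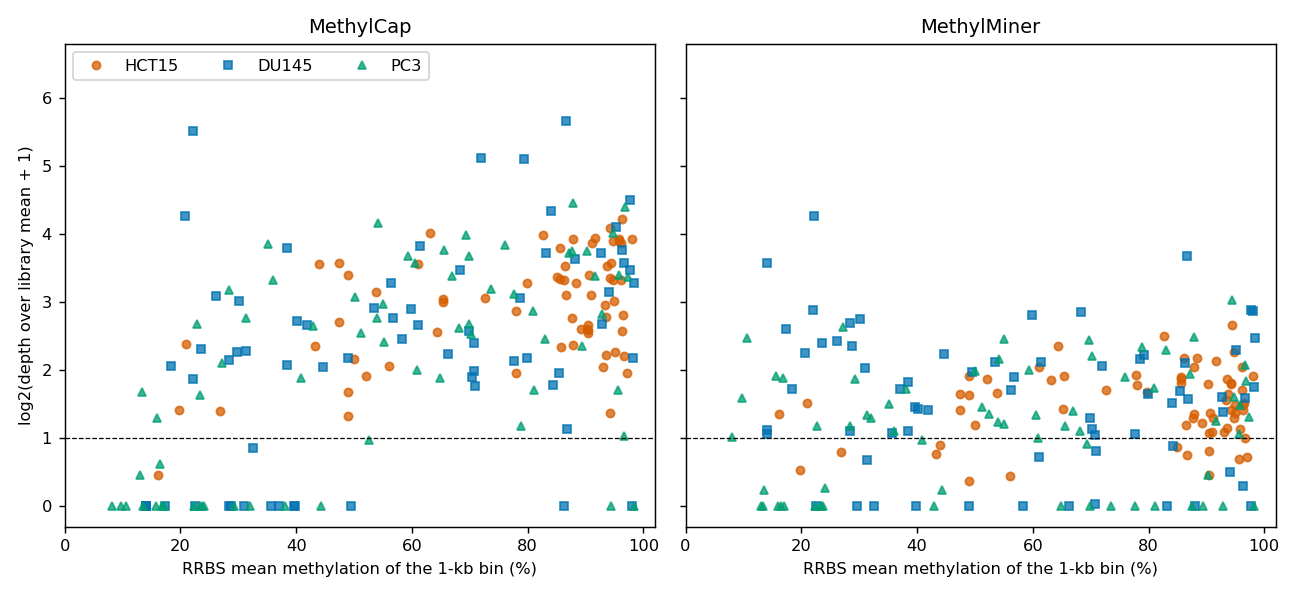
MBD-seq depth of 1-kb bins of the PAX genes, as log2 of the depth over the library mean plus 1, against the RRBS mean methylation (%) of the bin, with MethylCap (left) and MethylMiner (right). Each of the 68 bins gives a point for HCT15 (circles), DU145 (squares) and PC3 (triangles). The dashed line is the library mean. MethylCap bins under 20% sit at medians of 1.02, 0.0 and 0.0 times the mean, and bins at 80% or more at 8.88, 10.1 and 7.84 times.

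The promoters of the partners of PAX proteins had lower medians than the PAX promoters. Of the 11 genes SIX2 to SIX6 (homeodomain factors), EYA1 to EYA4 (their coactivators, which are phosphatases) and DACH1 and DACH2 (corepressors), promoter values were available for 9 (HCT15), 10 (DU145) and 9 (PC3), of which 5, 4 and 2 reached 50% (41.1%, 36.8% and 33.4% of all genes). Their medians were 61.0%, 32.7% and 19.0%. Partners 25 points or more higher in HCT15 numbered 3 of 9 against DU145 (SIX2, EYA2 and EYA4; 10.9% of all genes) and 4 of 9 against PC3 (SIX2, SIX3, EYA2 and EYA4; 12.6%). DU145 was above PC3 in 2 of 9 (DACH1 and EYA2; 7.44%). No partner passed 25 points in the other directions (2.72%, 2.06% and 3.22% of all genes, for DU145 over HCT15, PC3 over HCT15 and PC3 over DU145).

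Among the partners, EYA2 was methylated at 92.0% ± 12.4 (SD, n = 53 CpGs) in HCT15, 69% ± 21.1 (n = 76) in DU145 and 12.5% ± 19.5 (n = 76) in PC3. EYA4 stood at 86.5% ± 24.5 (n = 28), 28.8% ± 27 (n = 48) and 10.9% ± 23.1 (n = 38), and SIX2, which keeps kidney progenitors, at 61.0%, 28.4% and 21.4%. These 3 were lowest in PC3, while SIX6 was methylated in all 3 cell lines, at 90.9%, 89.8% and 83.8%. SIX3 stood at 93.8%, 76.2% and 73.0%, and DACH1 at 34.9%, 57.8% and 19.0%, highest in DU145.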

How the data were processed

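The RRBS files that the authors deposited hold 2 counts for each CpG, its methylated reads and its total reads, with strands summed and a lowest coverage of 6. The MBD-seq files hold the deposited signal, an unscaled depth (coverage) of non-duplicate fragments, from read pairs that the authors mapped with Bowtie to NCBI build 37 (hg19), keeping unique, close pairs. Positions of the depth files count from 0, which was settled from gaps in the reference.

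Genes came from GENCODE 44 lifted to GRCh37. Methylation was averaged over CpGs with coverage of at least 10 (median 23 to 33 per library), at least 5 per region. Fragment starts are rises in depth. Fisher's exact tests were adjusted over the genome, and each statistic was tested on simulated data. Alternatives changed the coverage, window, start site, averaging and thresholds. Intervals and floors cover counting error only. Since each group is 1 library, no test over samples was made, and differences of means were called at 25 points.

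The PAX genes and the list of partners were chosen with earlier results of these data known. 1 further partner is not reported here and is left out of the counts and medians of partners. All 9 PAX genes are named, and partners have values by gene if a promoter mean moved by 25 points. SIX6, whose mean did not, was given outside this rule. CpGs are named by the largest range in the promoter and body of each PAX gene, and the report gives a part of them. Sequences came from the promoters with the largest range, and untranslated regions were left out by an exclusion added later. The profiles in bins and the depth of bins were added after seeing the data. Python 3.11.15, numpy 2.4.6, pandas 2.3.3, scipy 1.17.1, numba 0.67.0, pysam 0.24.0, matplotlib 3.10.9 and samtools 1.23.1 were used.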

Additional observations from a re-analysis of the deposited data

How the results depend on the processing

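Over the counts of PAX promoters, bodies, CpGs and enriched windows, 72 of 92 alternative counts stayed within 1.5 times the main count and 20 did not. For PAX promoters differing by 25 points, the count for HCT15 against DU145 (1) became 0 at a coverage of at least 20, 2 in a window of 2 kb and 3 at canonical starts. The 0 arises because PAX9 had too few CpGs at that coverage to be measured, and the 2 are PAX7 and PAX4, which has a promoter value in that window and not in the main one, in place of PAX9. For HCT15 against PC3 (2) it became 1 at that coverage and 4 at canonical starts, and for DU145 against PC3 (1) it became 0 both with pooled reads and in a window of 2 kb. PC3 promoters at 50% or more numbered 4 with canonical starts, where the main count was 7. Those of DU145 numbered 4 as well, where the main count was 6, which is within 1.5 times. For gene bodies, HCT15 against DU145 (2) became 1 at a coverage of at least 20 and 1 with pooled reads, and DU145 against PC3 (1) became 2 with pooled reads. Called promoter CpGs numbered 35 (main 57) for HCT15 against DU145 and 42 (main 74) for HCT15 against PC3 at a coverage of at least 20. At a difference of 50 points they numbered 31, 28 and 20 (main 57, 74 and 76), and in gene bodies 430, 423 and 286 (main 697, 670 and 579). MethylMiner windows with at least 1 fragment start numbered 27 of 27, against 6 at 3 times the mean. The cause of these moves beyond the stricter or wider rule itself was not tested.

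The 11 differences of 25 points or more kept their direction under 61 alternative values, of which 53 stayed at 25 points or more. Among all 49 differences, 15 of 287 alternative values had the other sign, the largest main value among them being 20.1 points. No paired analysis was possible because each kit and cell line has 1 library, and no library could be left out for the same reason. Promoter values rest on 10 to 69 CpGs per gene and line, and depth in the low-yield MBD-seq libraries rests on few fragments.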
